A study of Mus musculus and Rattus norvegicus with 6 samples.

Results

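Prostaglandins are lipid messengers that smooth muscle cells both make and sense. The genes described here are the 4 enzymes and 6 receptors of this pathway that were listed by name: Ptgs1, Ptgs2, Ptges, Ptgis, Ptger1, Ptger2, Ptger4, Ptgfr, Ptgir and Tbxa2r. All 10 have a row among the 55573 genes of the table. RNA-seq libraries of siYAP/TAZ cells (n = 2), which received siRNAs against the transcriptional coactivators YAP and TAZ, were compared with libraries of siCo cells (n = 2), which received a control siRNA. TAZ is the product of Wwtr1. The sample labels name the cells of both groups as MOVAS, a line of mouse aortic smooth muscle, of WT genotype, whereas the legends of the study speak of primary SMCs of the penis. The study lists a pair of siRNA mixes against YAP and TAZ and transfected with Lipofectamine RNAi-MAX, and neither the sequenced mix nor the time after transfection is stated for the RNA-seq. A legend of the study calls the samples behind its qRT-PCR of selected RNA-seq genes biologically independent, and no source states this of the sequenced libraries themselves. The p-values below measure how far these libraries differ, and that spread may be technical if they share a culture. The series also has 2 rat penis samples of single nuclei, not analysed here.

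Prostanoid synthesis starts when a phospholipase frees arachidonic acid from the membrane. A cyclooxygenase, COX-1 (Ptgs1) or the inducible COX-2 (Ptgs2), turns it into prostaglandin H2, and terminal synthases convert this into prostaglandin E2 (Ptges), prostacyclin (Ptgis) or thromboxane. The products leave the cell and act on G protein-coupled receptors, of which IP (Ptgir), EP2 (Ptger2) and EP4 (Ptger4) raise cyclic AMP and relax smooth muscle, whereas EP1 (Ptger1), FP (Ptgfr) and TP (Tbxa2r) raise calcium and contract it.

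Total counts were 17192309 to 18751368 per library, and a level below is given as FPKM, the fragments per kilobase of exon, scaled to the total count of the library. Yap1 had 1.87 and 2.03 FPKM in siYAP/TAZ cells, against 21.8 and 23.5 FPKM in siCo cells, a log2 fold change of -3.50 (SE 0.0643, edgeR adjusted p = 7.554e-20). Wwtr1 had 16.8 and 17.6 FPKM in siYAP/TAZ cells, against 56.5 and 59.1 FPKM in siCo cells, a log2 fold change of -1.70 (SE 0.0488, edgeR adjusted p = 5.014e-17). Both targets were thus lower in each siYAP/TAZ library. Of 15479 genes tested, 4279 (27.6%) rose and 4290 (27.7%) fell at an adjusted p under 0.05. The markers of smooth muscle were detected in all libraries, and 5 of the 8 fell and 1 rose. Their summed level was 107.1 and 102.5 FPKM in siYAP/TAZ cells, against 207.1 and 211.3 FPKM in siCo cells. Most of it was Acta2, with a mean of 67.4 FPKM in siYAP/TAZ cells against 140.2 FPKM in siCo cells. Smtn (23.2 against 25.3 FPKM) and Tagln (8.64 against 35.5 FPKM) came next. Means were low for Myh11 (0.954 against 1.29 FPKM), Cnn1 (1.15 against 2.15 FPKM) and Lmod1 (1.53 against 3.52 FPKM). They were also low for Des (1.79 against 1.18 FPKM), and Myocd was near the floor (0.0562 against 0.132 FPKM). In bulk RNA, fewer cells of a type and less RNA per cell cannot be told apart.

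Of the 9 members tested, 6 rose (Ptgs1, Ptges, Ptgis, Ptgir, Ptgfr and Ptger1), 2 fell (Ptgs2 and Ptger4) and 1 did not pass (Ptger2). The background share was 27.6% of all tested genes higher and 27.7% lower. Tbxa2r had too few counts to be tested. The enzymes were abundant, with 20.3 to 579.4 FPKM over all libraries. The receptors were scarcer, and only Ptgir exceeded 3 FPKM.

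The regions just upstream of a RefSeq start of 4 members are shown because they have the largest levels of the set (Ptges, Ptgs2 and Ptgs1) or the largest change (Ptgir). Each line gives the 250 bases before the start in RefSeq, GRCm38.p6, from 5′ to 3′ on the strand of the gene, with motif matches in capitals.
Ptgs2, chr1:150099781-150100030, plus strand: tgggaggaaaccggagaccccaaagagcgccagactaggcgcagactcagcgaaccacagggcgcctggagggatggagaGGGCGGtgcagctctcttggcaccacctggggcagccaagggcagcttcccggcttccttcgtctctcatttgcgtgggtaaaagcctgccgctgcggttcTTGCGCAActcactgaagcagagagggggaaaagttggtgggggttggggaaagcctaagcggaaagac
Ptges, chr2:30903298-30903547, minus strand: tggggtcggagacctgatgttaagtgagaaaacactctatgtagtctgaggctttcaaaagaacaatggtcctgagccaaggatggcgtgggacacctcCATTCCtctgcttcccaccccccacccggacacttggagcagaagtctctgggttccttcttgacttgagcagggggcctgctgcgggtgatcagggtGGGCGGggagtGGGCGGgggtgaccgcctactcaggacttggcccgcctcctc
Ptgs1, chr2:36230176-36230425, plus strand: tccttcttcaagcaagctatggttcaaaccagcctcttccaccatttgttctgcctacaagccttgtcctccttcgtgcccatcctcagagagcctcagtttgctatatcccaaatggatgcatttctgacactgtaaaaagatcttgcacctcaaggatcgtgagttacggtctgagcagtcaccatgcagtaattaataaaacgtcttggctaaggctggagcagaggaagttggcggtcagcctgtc
Ptgir, chr7:16906240-16906489, plus strand: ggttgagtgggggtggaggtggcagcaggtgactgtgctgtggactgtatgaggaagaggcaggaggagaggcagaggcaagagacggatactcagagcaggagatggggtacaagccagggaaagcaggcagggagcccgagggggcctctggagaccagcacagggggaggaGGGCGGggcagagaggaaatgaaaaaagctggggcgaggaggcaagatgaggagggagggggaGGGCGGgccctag

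Both strands were searched for 6 short motifs, in windows that also took in the 50 bases after the start, and positions are those of the leftmost base, counted from 1 at the start and from -1 just before it. YAP and TAZ bind DNA through TEAD factors, whose core GGAATG is in 14.7% of the 32851 promoter windows of all genes. Of the 8 members with a window, 1 held it: Ptges, as CATTCC at -151. The RefSeq start of Ptges lies inside the longer span that the table gives this gene, downstream of its 5′ end, whereas the starts of Ptgs1, Ptgs2 and Ptgir are the same in both. The AP-1 motif TGANTCA, in 7.81% of all windows, was in 0 of the 8 members. The Ptgs2 window held the C/EBP motif TTGCNNAA, found in 10.8% of all windows, as TTGCGCAA at -69. Just after the Ptgs2 start lies a further site, shown because part of a cyclic AMP response element and an E-box overlap there.
Ptgs2, chr1:150100033-150100062, plus strand: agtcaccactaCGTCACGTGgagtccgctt

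Its capitals hold CGTCA at 14 and the E-box CACGTG at 17 (7.15% of all windows). CGTCA is the reverse strand of TGACG, a part of the cyclic AMP response element (20.8% of all windows), and the whole element was not searched. GC boxes, GGGCGG (35.7% of all windows), stood at -170 in Ptgs2, at -53 and -42 in Ptges and at -76 and -13 in Ptgir. The Ptgs1 window held none of the 6 motifs. These are matches of letters, and no binding was measured in these cells.

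The cyclooxygenases moved in opposite directions. Ptgs2, the inducible cyclooxygenase (GRCm38 chr1:150100031-150108227), had 143.5 and 144.7 FPKM in siYAP/TAZ cells, against 297.2 and 306.4 FPKM in siCo cells. Both siYAP/TAZ libraries lay far below both siCo libraries, and the 2 libraries of each group were close to each other. Ptgs2 fell by 1.02 on the log2 scale (SE 0.0399, edgeR adjusted p = 6.465e-15), with counts of 12326 and 11391 against 25065 and 25305. By mean level it ranked 290 of the tested genes in siYAP/TAZ cells and 117 in siCo cells, so it remained an abundant transcript after the knockdown.

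Ptgs1, the constitutive cyclooxygenase (GRCm38 chr2:36230426-36252272), had 71.0 and 70.0 FPKM in siYAP/TAZ cells, against 37.8 and 38.3 FPKM in siCo cells. The groups did not overlap, and the gap between them was much wider than the spread within either. Its log2 fold change was 0.935 (SE 0.0437, edgeR adjusted p = 1.216e-13), from means of 70.5 ± 0.720 FPKM in siYAP/TAZ cells and 38.0 ± 0.376 FPKM in siCo cells (SD, n = 2 each).

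Within a library the mix of both enzymes therefore differed between the groups. There were 2.02 and 2.07 Ptgs2 per Ptgs1 in siYAP/TAZ cells, against 7.87 and 8.001 in siCo cells, as ratios of FPKM. Ptgs1 made up 33.1% and 32.6% of the cyclooxygenase level in siYAP/TAZ cells, against 11.3% and 11.1% in siCo cells. Ptgs2 was thus the more abundant of the pair in every library. The sum of both was 214.5 and 214.7 FPKM in siYAP/TAZ cells, against 335.0 and 344.7 FPKM in siCo cells, so the rise of Ptgs1 was smaller in FPKM than the fall of Ptgs2. These ratios and sums are descriptions without a test.

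Ptges, the inducible microsomal synthase of prostaglandin E2 (GRCm38 chr2:30889471-30929863), had 552.4 and 579.4 FPKM in siYAP/TAZ cells, against 252.7 and 250.9 FPKM in siCo cells. It was the most abundant member in siYAP/TAZ cells, ranking 54 of the tested genes, and came after Ptgs2 in siCo cells, where it ranked 151. Ptges rose by a log2 fold change of 1.21 (SE 0.0401, edgeR adjusted p = 5.090e-16), and the libraries of the 2 groups did not overlap. Ptges and the cyclooxygenase sum moved in opposite directions, and Ptges reached 2.58 and 2.70 times that sum in siYAP/TAZ cells, against 0.755 and 0.728 times in siCo cells.

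Ptgis, the prostacyclin synthase (GRCm38 chr2:167191805-167240604), had 36.2 and 36.0 FPKM in siYAP/TAZ cells, against 20.3 and 22.0 FPKM in siCo cells. Each siYAP/TAZ library was above each siCo library, at a log2 fold change of 0.82 (SE 0.0577, edgeR adjusted p = 1.021e-10). Ptgis remained far scarcer than Ptges, with 15.3 and 16.1 Ptges per Ptgis in siYAP/TAZ cells, against 12.5 and 11.4 in siCo cells. The log2 fold changes of Ptgs1, Ptgs2, Ptges and Ptgis kept their direction and their call in all 12 alternatives tried.

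**Figure D1:**
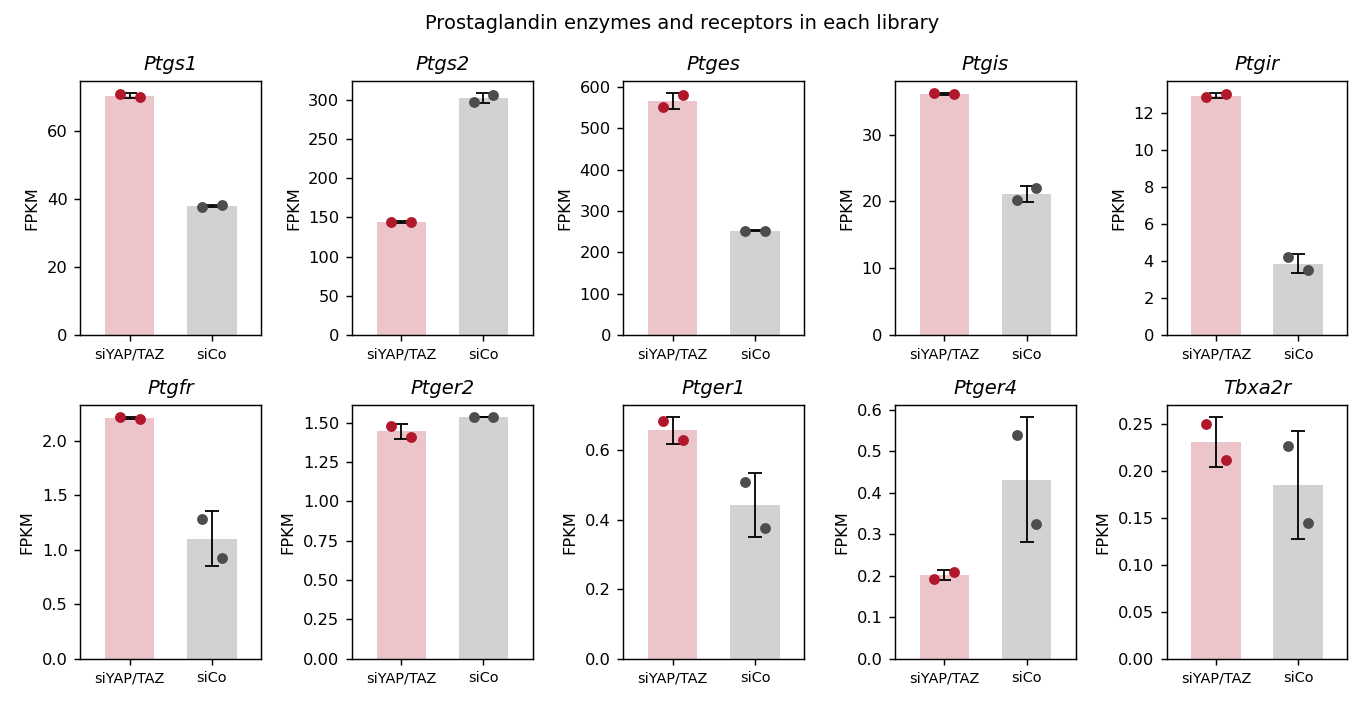
FPKM of the 10 members in each library, with siYAP/TAZ cells in red and siCo cells in grey; points are libraries, bars are means and error bars are SD (n = 2 per group), and each panel has its own axis from 0. Ptges, Ptgs1, Ptgis, Ptgir and Ptgfr lie higher in both siYAP/TAZ libraries and Ptgs2 and Ptger4 lower, whereas Tbxa2r overlaps between the groups.

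Ptgir, the prostacyclin receptor (GRCm38 chr7:16906490-16910905), showed the largest change of the members. It had 12.8 and 13.03 FPKM in siYAP/TAZ cells, against 4.22 and 3.51 FPKM in siCo cells. Both siYAP/TAZ libraries were well above both siCo libraries, with counts of 803 and 747 against 259 and 211. The log2 fold change was 1.79 (SE 0.0922, edgeR adjusted p = 6.031e-13), a fold change of 3.45. Synthase and receptor of prostacyclin, Ptgis and Ptgir, were thus both higher in siYAP/TAZ cells.

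The EP2 and EP4 receptors of prostaglandin E2, which also raise cyclic AMP, were not called higher. Ptger2 (GRCm38 chr14:44988195-45003820) had 1.48 and 1.41 FPKM in siYAP/TAZ cells, against 1.54 and 1.54 FPKM in siCo cells. The siYAP/TAZ values lay slightly lower, but the log2 fold change of -0.04 was smaller than its SE of 0.149 (edgeR adjusted p = 0.822). Ptger4 (GRCm38 chr15:5206661-5244187) had 0.193 and 0.210 FPKM in siYAP/TAZ cells, against 0.539 and 0.325 FPKM in siCo cells. The siCo libraries differed widely from each other, with counts of 66 and 39, against 24 and 24 in siYAP/TAZ cells. Ptger4 fell by 1.06 on the log2 scale (SE 0.318, edgeR adjusted p = 0.00744), but the call was lost in DESeq2 (adjusted p = 0.0885) and without siCo replicate 1 (log2 fold change -0.65, edgeR adjusted p = 0.185).

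Among the receptors that raise calcium, Ptgfr, the receptor of prostaglandin F2α (GRCm38 chr3:151796502-151837630), had 2.22 and 2.21 FPKM in siYAP/TAZ cells, against 1.28 and 0.925 FPKM in siCo cells. Both siYAP/TAZ libraries were above both siCo libraries, and the siCo libraries were the more spread out. Ptgfr rose by a log2 fold change of 1.05 (SE 0.143, edgeR adjusted p = 2.213e-06).

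Ptger1, the EP1 receptor (GRCm38 chr8:83666678-83672753), had 0.684 and 0.629 FPKM in siYAP/TAZ cells, against 0.507 and 0.376 FPKM in siCo cells. The counts of 70 and 59 in siYAP/TAZ cells and 51 and 37 in siCo cells did not overlap but were low. Its log2 fold change of 0.61 passed narrowly (SE 0.248, edgeR adjusted p = 0.0410), and the call was kept in 5 of 10 alternatives, with adjusted p of 0.261 in DESeq2 and 0.225 in edgeR without siCo replicate 2. In edgeR without siYAP/TAZ replicate 1 or 2 the adjusted p was 0.186 or 0.0920. The counts of Ptger1 are also uncertain because the sources used here do not state whether the counting used strand.

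Tbxa2r, the thromboxane receptor (GRCm38 chr10:81328731-81335172), had 0.2501 and 0.212 FPKM in siYAP/TAZ cells, against 0.226 and 0.145 FPKM in siCo cells. The libraries of the groups overlapped. Summed over libraries and set against total counts, 16 counts in siYAP/TAZ cells against 13 in siCo cells gave a ratio of 1.25 (95% exact interval 0.563 to 2.82, for counting error only), and no difference was detectable at this depth.

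**Figure D2:**
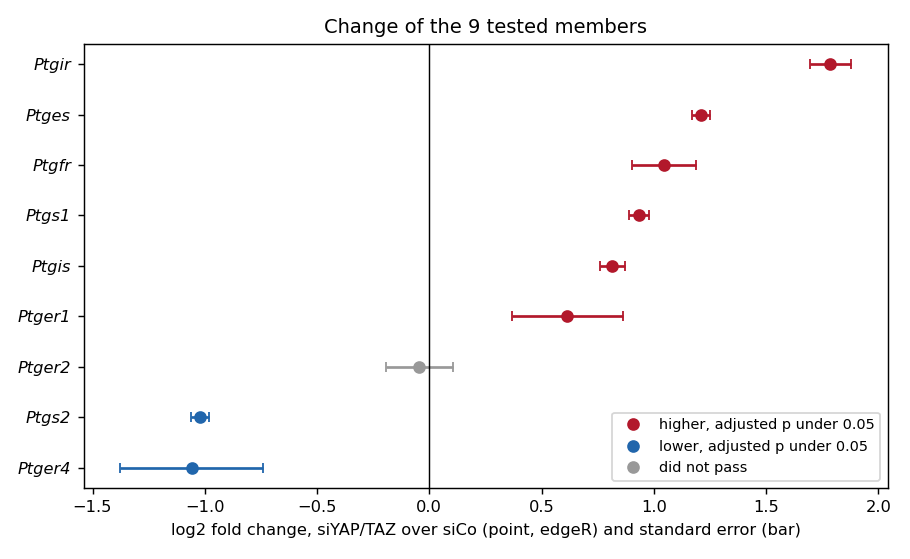
log2 fold changes of the 9 tested members, siYAP/TAZ over siCo; points are edgeR estimates, bars are standard errors and colours give the call. Ptgir (1.79) and Ptges (1.21) stand at the top, Ptgs2 (-1.02) and Ptger4 (-1.06) at the bottom, and the bars of Ptger1 and Ptger4 are the widest.

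Ordered by mean level, the receptors of siYAP/TAZ cells ran from Ptgir (12.9 FPKM) over Ptgfr (2.21 FPKM) and Ptger2 (1.45 FPKM) to Ptger1 (0.656 FPKM). Tbxa2r (0.231 FPKM, counts of 9 and 7) and Ptger4 (0.201 FPKM, counts of 24 and 24) came last and were too close to be ordered. In siCo cells Ptgir (3.86 FPKM) was also first, Ptger2 (1.54 FPKM) came before Ptgfr (1.10 FPKM), and Ptger1 (0.442 FPKM) and Ptger4 (0.432 FPKM) overlapped between libraries and could not be ordered. The 6 receptors summed to 17.7 and 17.7 FPKM in siYAP/TAZ cells, against 8.31 and 6.82 FPKM in siCo cells. Ptgir carried most of this difference. Its share of the sum was 72.7% and 73.6% in siYAP/TAZ cells, against 50.8% and 51.5% in siCo cells. The receptors that raise cyclic AMP (Ptgir, Ptger2 and Ptger4) had 4.60 and 4.81 times the summed level of those that raise calcium (Ptgfr, Ptger1 and Tbxa2r) in siYAP/TAZ cells, against 3.12 and 3.72 times in siCo cells, again without a test.

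**Figure D3:**
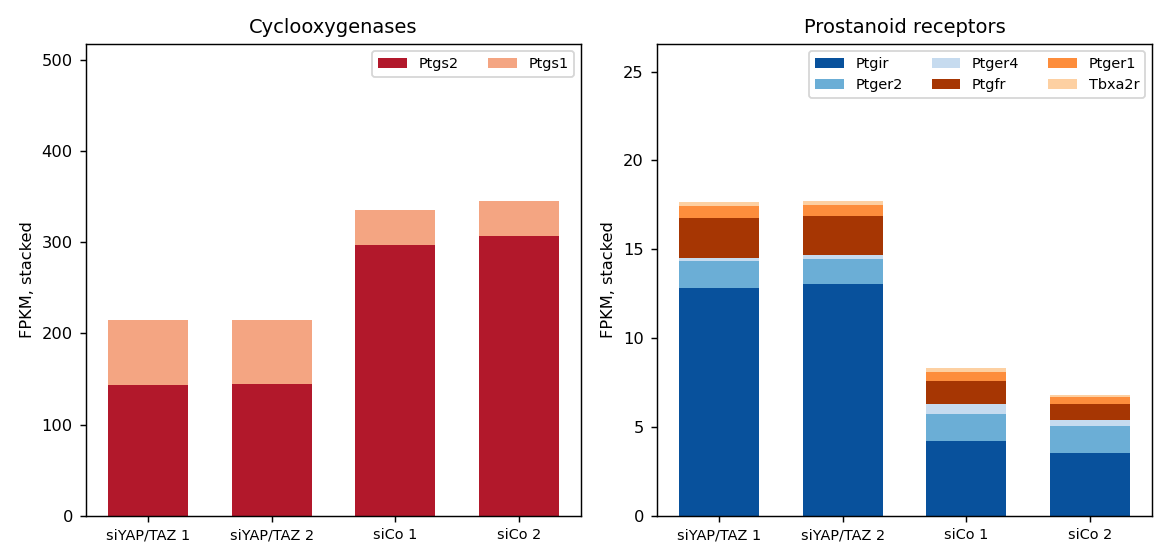
Stacked FPKM of the cyclooxygenases (left) and of the 6 receptors (right) in each library, from 0; colours are genes, and blue receptors raise cyclic AMP whereas orange ones raise calcium. Ptgs1 takes 33.1% and 32.6% of the cyclooxygenase bar in siYAP/TAZ cells, against 11.3% and 11.1% in siCo cells, and Ptgir fills most of the taller receptor bars of siYAP/TAZ cells.

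Of the 38 genes in the 4 lists on arachidonate release, other prostanoid synthases, transport and inactivation, and other receptors, 28 were tested, 9 rose (32.1%) and 9 fell (32.1%), against 27.6% and 27.7% of all tested genes. Ptgds, one of the prostaglandin D2 synthases, and Ptgdr, a receptor of prostaglandin D2, had no count in any library.

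Among the phospholipases and other genes of arachidonate release, 4 of 11 tested rose and 5 fell, with a median log2 fold change of -0.21, against -0.000329 over all tested genes. The 4 that rose did so strongly. Pla2g2e, a secreted phospholipase A2, had 29.5 and 36.1 FPKM in siYAP/TAZ cells, against 4.15 and 3.75 FPKM in siCo cells. Its log2 fold change of 3.09 (SE 0.139, edgeR adjusted p = 6.832e-14) was larger than that of any member. Pla2g4c, a cytosolic phospholipase A2, rose by 2.12, Pla2g7, which hydrolyses platelet-activating factor, by 1.71, and Pla2g5, a secreted phospholipase A2, by 1.16 on the log2 scale. The 5 that fell did so mildly, and the count was 3 in DESeq2. Pla2g4a, the cytosolic phospholipase A2 best known for supplying cyclooxygenases, had 17.6 and 18.6 FPKM in siYAP/TAZ cells, against 21.7 and 22.0 FPKM in siCo cells (log2 fold change -0.23, SE 0.0482, edgeR adjusted p = 4.241e-04). Plaa, the phospholipase A2 activating protein (-0.40), Pla2g15, a lysosomal phospholipase (-0.28), Pla2g12a, a secreted one (-0.25), and Pla2g6, a calcium-independent one (-0.21), were the other genes lower in siYAP/TAZ cells. Pla2g12a and Pla2g6 lost their call in DESeq2 (adjusted p = 0.0795 and 0.0942), Pla2g12a also in edgeR without siYAP/TAZ replicate 1 (adjusted p = 0.115) or siCo replicate 2 (adjusted p = 0.0792), and Pla2g6 without siYAP/TAZ replicate 2 (adjusted p = 0.0641). Mgll, which frees arachidonate from 2-arachidonoylglycerol, at 0.34 and Pla2g4b at -0.26 did not pass, and Pla2g4b shares 66.5% of its exonic bases with Gm28042 on the same strand.

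The other synthases of prostaglandin E2, Ptges3 and Ptges2, moved in opposite directions. Ptges3, a cytosolic synthase that is also a co-chaperone, fell by 0.43 on the log2 scale, with 46.5 and 50.8 FPKM in siYAP/TAZ cells, against 65.3 and 70.0 FPKM in siCo cells. Ptges2 rose by 0.30, with 8.75 and 8.59 FPKM in siYAP/TAZ cells, against 7.18 and 7.31 FPKM in siCo cells. Of the reductases that can act on prostaglandins, the aldo-keto reductase Akr1b8 (0.37) and the carbonyl reductase Cbr1 (0.23) rose and Cbr3 (-0.39) fell. The call of Cbr1 was lost in DESeq2 (adjusted p = 0.124) and in edgeR without siYAP/TAZ replicate 2 (adjusted p = 0.123). Akr1c18 (0.19), Akr1b3 (-0.01), Prxl2b, a prostamide and prostaglandin F synthase (0.16), and the thromboxane synthase Tbxas1 (0.18, at under 0.1 FPKM in every library) did not pass. In all, 3 of the 9 tested synthases of this list rose and 2 fell, and its median log2 fold change was 0.18.

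Of the 7 genes of transport and inactivation, 1 rose and 2 fell. The prostaglandin transporter Slco2a1, which carries prostaglandins into the cell, had 16.1 and 16.97 FPKM in siYAP/TAZ cells, against 21.0 and 20.5 FPKM in siCo cells. It fell by 0.28 on the log2 scale (SE 0.0440, edgeR adjusted p = 1.212e-05). Zadh2, a prostaglandin reductase, rose by 0.23, and Akr1c14, a hydroxysteroid dehydrogenase, fell by 1.39 at about 1 FPKM in siCo cells. Hpgd, the dehydrogenase that inactivates prostaglandins (0.16), the exporter Abcc4 (-0.02), and the reductases Ptgr1 (-0.10) and Ptgr2 (0.14) did not pass. Of the other receptor genes, only Ptgfrn, which encodes a negative regulator of FP, had enough counts, and it rose by 0.16 (SE 0.0484, edgeR adjusted p = 0.00743). This call was lost in DESeq2 (adjusted p = 0.0757), in both limma fits (adjusted p = 0.113 and 0.112) and in edgeR without siYAP/TAZ replicate 1 (adjusted p = 0.0746).

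The leukotriene and lipoxygenase branch competes for the same arachidonic acid. Of its 10 tested genes, 6 rose and 1 fell, against 27.6% and 27.7% of all tested genes. The median log2 fold change was 0.88, against -0.000329 over all tested genes. Most genes of the branch were at low levels. The count of higher genes was 1 in DESeq2, 2 in both limma fits and 3 with at least 50 counts in 2 libraries. It was 3 without siYAP/TAZ replicate 1 and 2 without siYAP/TAZ replicate 2. Mgst2, a microsomal glutathione transferase that can form leukotriene C4, rose by 0.92 and Ltc4s, the leukotriene C4 synthase, by 0.78, whereas Aloxe3, an epidermal lipoxygenase, fell by 1.20 on the log2 scale. The call of Ltc4s was lost in DESeq2 and in edgeR without siYAP/TAZ replicate 2 or siCo replicate 1. Lta4h, the leukotriene A4 hydrolase and the most abundant of the list, had a log2 fold change of -0.03 and did not pass.

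**Figure D4:**
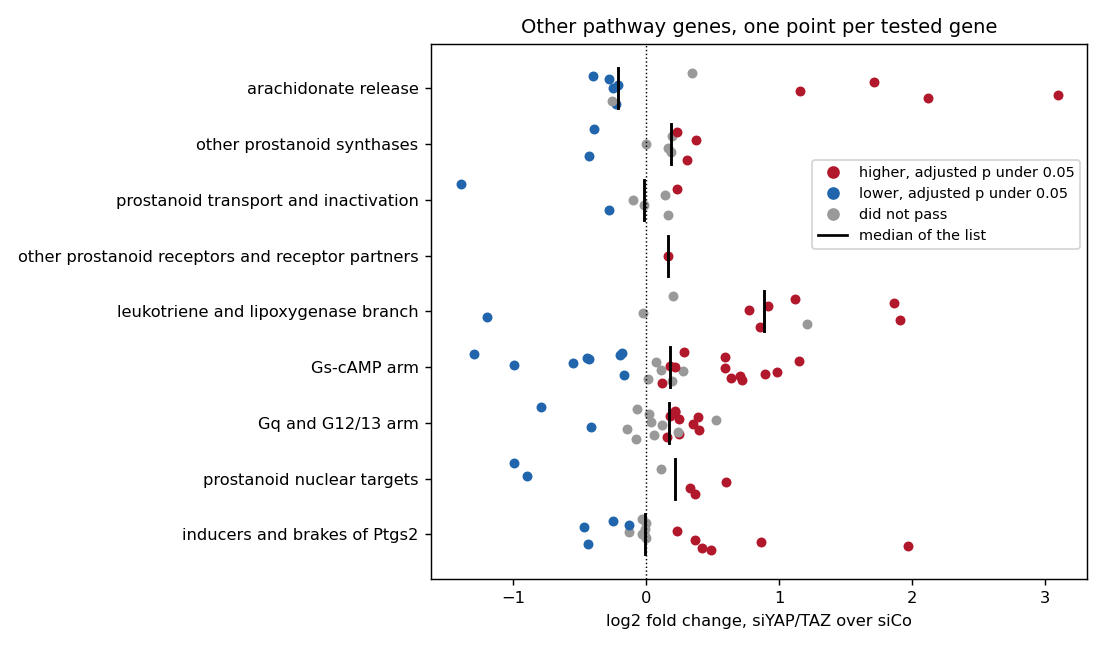
log2 fold change, siYAP/TAZ over siCo, of each tested gene of the 9 pathway lists; 1 point per gene, coloured by call, with a black line at the median of each list and a dotted line at 0. Genes of arachidonate release split into a strongly higher set, led by Pla2g2e at 3.09, and a mildly lower set, and the other lists hold changes in both directions apart from the single tested gene of the other receptors.

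Downstream of the receptors, 12 of the 25 tested genes of the Gs and cyclic AMP arm rose and 8 fell. As background for this arm and the next, 27.6% of all tested genes rose and 27.7% fell. Pde4d, a cyclic AMP phosphodiesterase, fell by 1.30 on the log2 scale, and Prkar2a, a regulatory subunit of protein kinase A, by 0.99, with 13.04 and 12.7 FPKM in siYAP/TAZ cells against 25.6 and 27.3 FPKM in siCo cells. The adenylyl cyclases Adcy8 (0.98) and Adcy7 (0.89) rose. Prkar1a, the most abundant of the list and another regulatory subunit, rose by 0.22. In DESeq2 8 genes of this arm rose and 4 fell, and with limma on log2(FPKM + 0.1) 7 rose and 4 fell. With scaling by library totals 9 rose and 8 fell. Both counts were also smaller than in the main fit without siYAP/TAZ replicate 1 or 2 and without siCo replicate 1. Without siCo replicate 2 only the count of lower genes was smaller. In the Gq and G12/13 arm, which serves the contractile receptors, 9 of 20 tested rose and 2 fell. The kinase Rock2 fell by 0.80, with 15.4 and 15.1 FPKM in siYAP/TAZ cells, against 26.6 and 27.9 FPKM in siCo cells. The inositol trisphosphate receptor Itpr1 fell by 0.41, and Plcb3 (0.40), a phospholipase C, Prkce (0.39), a protein kinase C, and Rhoa (0.22), the small GTPase upstream of Rock2 and the most abundant of the list, rose.

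Of the nuclear receptors listed as linked to prostanoids, 3 of 6 tested rose and 2 fell, and 1 fell in DESeq2 and in both limma fits. Fewer also fell without siYAP/TAZ replicate 1. Rxra (0.60), Ppard (0.36) and Pparg (0.33) rose, and Nr4a1, an immediate early gene, fell by 0.90 on the log2 scale. Pparg lost its call in DESeq2, in both limma fits, with scaling by library totals and in edgeR without siYAP/TAZ replicate 1 or siCo replicate 1. Among the known inducers and brakes of Ptgs2, 6 of 17 tested rose and 4 fell, and 2 fell without siYAP/TAZ replicate 2. Il1rn, the antagonist of the interleukin-1 receptor, had 2.96 and 2.98 FPKM in siYAP/TAZ cells, against 0.785 and 0.782 FPKM in siCo cells, a log2 fold change of 1.97 (SE 0.141, edgeR adjusted p = 1.252e-10). The receptor Il1r1 rose by 0.48 and Tnf by 0.86, Tsc22d3, a glucocorticoid-induced brake on inflammation, fell by 0.47, and the abundant Anxa1, an inhibitor of phospholipase A2 activity, fell by 0.13. Tnf lost its call in DESeq2 and in edgeR without siYAP/TAZ replicate 2 or siCo replicate 2, and Anxa1 with upper-quartile scaling and without siYAP/TAZ replicate 1 or 2. Over the 9 lists, 45 of 106 tested genes rose (42.5%) and 26 fell (24.5%), against 27.6% and 27.7% of all tested genes.

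Markers of other cells that make or sense prostanoids were measured beside these genes. Over all tested genes, 27.6% rose and 27.7% fell. Fibroblast markers rose in 6 of 6 tested, with summed levels of 401.1 and 377.2 FPKM in siYAP/TAZ cells, against 307.5 and 250.7 FPKM in siCo cells. Col1a1 overlapped between the groups, with 151.4 and 129.7 FPKM in siYAP/TAZ cells, against 142.9 and 110.4 FPKM in siCo cells. It passed narrowly (log2 fold change 0.19, edgeR adjusted p = 0.0379). Of the pericyte markers 4 of 6 rose, with sums of 71.7 and 70.1 FPKM in siYAP/TAZ cells, against 40.1 and 34.8 FPKM in siCo cells. Of the endothelial markers 5 of 7 rose and 1 fell, with sums of 85.1 and 88.2 FPKM in siYAP/TAZ cells, against 72.2 and 69.1 FPKM in siCo cells. The part of the fibroblast, pericyte, endothelial and other marker lists in the changes of the prostanoid genes was not tested. Of the epithelial markers 2 of 3 tested rose, with sums of 15.8 and 14.8 FPKM in siYAP/TAZ cells, against 5.58 and 6.82 FPKM in siCo cells. The 2 were Krt8 (mean 5.72 FPKM in siYAP/TAZ cells against 1.67 FPKM in siCo cells) and Krt18 (8.99 against 4.26 FPKM). They made up most of the sum, and Krt5 did not pass. Epcam (0.0872 against 0.0753 FPKM) and Cdh1 (0.0965 against 0.0178 FPKM) had too few counts to be tested. Macrophage markers rose in 3 of 4 tested, with sums of 43.7 and 50.7 FPKM in siYAP/TAZ cells, against 36.9 and 34.2 FPKM in siCo cells, while the defining markers Adgre1, Tyrobp, C1qa and C1qb were at 0 in every library. Of the mast cell markers the 1 tested rose, and the list summed to 0.290 and 0.311 FPKM in siYAP/TAZ cells, against 0.192 and 0.0124 FPKM in siCo cells, with Cpa3, Tpsb2 and Fcer1a at 0 in every library. Of the platelet markers 1 of 3 tested fell, and the list summed to 16.3 and 14.6 FPKM in siYAP/TAZ cells, against 19.2 and 20.5 FPKM in siCo cells.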

How the data were processed

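The authors sequenced paired reads, trimmed them with Trimmomatic, aligned them to mm10 with HISAT2 and deposited counts of uniquely mapped reads per Ensembl gene from featureCounts, as their methods describe for tissue. The sources used here give neither their versions nor the strand setting or Ensembl release. The deposited FPKM are the counts divided by the deposited exonic length and the library total, a formula that matched all 55573 genes in both siCo libraries to within 0.01 FPKM and was used for all 4. Columns of the siYAP/TAZ libraries name the group but no single sample, so replicate numbers follow their order in the table, and the 2 FPKM columns among them were left unused. Of 55630 rows, 57 name no gene and hold 0 counts. Replicate libraries were not duplicates of each other (chi-square per gene 1.95 for siYAP/TAZ and 3.18 for siCo).

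Counts were tested with the quasi-likelihood test of edgeR 4.0.16 (R 4.3.3; TMM scaling, filterByExpr at a minimum count of 10, Benjamini-Hochberg adjustment over 15479 genes, threshold 0.05). SE is the absolute log2 fold change over the square root of F. The spread came mostly from the trend over genes (18.6 prior and 2 residual degrees of freedom). On simulated data of 15479 genes with 200 changed, the test called 91.1% of genes shifted by a log2 fold change of 1 and 100% at a log2 fold change of 2, while unchanged genes made up 4.95% of the calls. The changed genes were drawn only above a minimum mean count in siCo cells, and the simulated spread came from the same fit. Far fewer genes were changed than were called in the real libraries, so these shares may not carry over to them or to genes of low count. Alternatives used DESeq2 1.42.0, limma 3.58.1 on log2(FPKM + 1) or log2(FPKM + 0.1), other scalings and filters, a replicate block and leaving out libraries. Members and gene lists were chosen with earlier results of these data known. Named genes are the siRNA targets, all members, every tested gene of the 4 prostanoid lists and, of each other list, up to 4 called genes with the largest change and at least 1 FPKM in the higher group, plus the most abundant gene. Gm28042 is named for an overlap, and the result of 1 other overlap is not reported here. Ptgds and Ptgdr are named as at 0, and markers are named as at 0 or to qualify the sum or count of their list. Promoters and starts are from RefSeq for GRCm38.p6, and gene coordinates are those of the deposited table. Python 3.11.15 was used with scipy 1.17.1 and pandas 2.3.3, and figures were drawn in matplotlib 3.10.9.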

Additional observations from a re-analysis of the deposited data

How the results depend on the processing

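Ptgs1, Ptgs2, Ptges, Ptgis, Ptgfr and Ptgir kept their direction and call, and Ptger2 stayed uncalled, in all 12 alternatives. The number of members that fell was 1 instead of 2 in DESeq2, with at least 50 counts in 2 libraries, with limma on log2(FPKM + 1) and on log2(FPKM + 0.1), and without siCo replicate 1, and it was 1 to 2 when any 1 library was left out. The filters of the 50-count and limma fits removed Ptger4 itself. Ptger1 also lost its call when libraries were scaled by totals only (log2 fold change 0.57, edgeR adjusted p = 0.0572). No scaling moved the median of all genes by over 0.1. The log2 ratio of Ptgs2 over Ptgs1, siYAP/TAZ minus siCo, was -1.96 and became -1.94 on the log2(FPKM + 1) scale. That of the receptors raising cyclic AMP over those raising calcium was 0.47. It became 0.60 on that scale, where 1 FPKM is added to each sum of receptors. Of 216 counts over the 9 pathway lists, 21 moved by over 1.5 times. Same-numbered libraries did not deviate together (correlation 0.00774). With 2 libraries per group, and siYAP/TAZ numbers set only by column order, this cannot settle whether the samples are paired. With a replicate block, 6 members rose and 2 fell, and 4440 genes of the whole table rose and 4428 fell. Ptger4, Ptger1 and Tbxa2r are limited by their depth of 5 to 70 counts per library.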
